A study of Mus musculus with 6 samples.

Results

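The subunit genes of oxidative phosphorylation were examined in RNA-Seq data from the mouse cerebellum. Members were protein-coding genes whose symbols begin with Ndufa, Ndufb, Ndufc, Ndufs, Ndufv, Sdha to Sdhd, Uqcr, Cox4 to Cox8, Atp5, mt-Nd, mt-Co, mt-Cytb or mt-Atp, without the Ndufaf assembly factors, and whose mean count over the mice was at least 10. Of 53715 genes in the table, 98 protein-coding genes carried such a symbol and 96 reached that count, 83 of them nuclear and 13 mitochondrial. Cox8b was just inside the limit, with counts of 19, 8 and 7 in control mice 1 to 3 and 12, 12 and 10 in Slc39a8-NSKO mice 1 to 3. Cox7b2, with a mean count of 8, and Cox8c, listed at 0 in every mouse, were just outside it. By complex, 43 members belong to complex I, 4 to complex II, 9 to complex III, 21 to complex IV and 19 to complex V. The prefix Atp5 also takes in Atp5s, which is not a structural subunit, and the rule leaves out Cyc1, a catalytic subunit of complex III.

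Cerebella came from 3 control and 3 Slc39a8-NSKO male mice, labelled C57BL/6 and described in the study as on a C57BL/6J background, 1 library for each mouse. The knockout removes Slc39a8, a manganese transporter, from neurons by means of floxed alleles and a synapsin-driven Cre recombinase, so that glia, vessels and meninges in the same tissue keep the gene. The labels call the control group WT, whereas the study describes Slc39a8 fl/fl controls and gives the age of these mice as 4 weeks. Gene counts per mouse ranged from 14431260 to 20844267, and any pair of libraries differed by more than sampling noise. Slc39a8 itself was measured at 4.78, 3.2 and 2.83 CPM (counts scaled to a common library size) in control mice and at 1.90, 2.05 and 2.18 CPM in Slc39a8-NSKO mice, lower in every knockout mouse but not past the threshold (log2 fold change -0.83, SE 0.24, edgeR adjusted p = 0.534). The tissue carried its defining neuronal markers, with summed granule cell markers at 6254 to 6527 CPM in control and 6237 to 6721 CPM in Slc39a8-NSKO mice. Among the other marker lists, 7 of 7 oligodendrocyte and 5 of 6 endothelial markers had a fold change below 0, while 6 of 7 astrocyte, 6 of 6 microglia and 6 of 6 choroid plexus markers lay above 0, and only the summed microglia markers (102 to 113 against 119 to 123 CPM) and the cardiac markers described with Cox6a2 did not overlap. Above 0 lay 5 of 9 granule cell, 5 of 9 Purkinje cell and 4 of 6 molecular layer interneuron markers. Over all genes tested the share above 0 was 50.5%. Nxph1, in the interneuron list, passed the test with lower levels in Slc39a8-NSKO mice (log2 fold change -0.92, SE 0.12, edgeR adjusted p = 0.00621). The part of the marked cell types in the members' values was not tested.

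Oxidative phosphorylation takes place in the inner mitochondrial membrane. Complexes I and II feed electrons from NADH and succinate to ubiquinone, complex III passes them to cytochrome c, and complex IV reduces oxygen, while complexes I, III and IV pump protons that complex V uses to make ATP. All complexes but complex II combine subunits from the nuclear genome with subunits from the mitochondrial genome, whose genes are transcribed together as long precursors and then cut apart. Cerebellar neurons depend heavily on this pathway because firing and synaptic transmission consume much ATP.

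The sequences that bear most on the measurements below are those of the mitochondrial genes, because annotated copies of several lie in the nuclear genome. On chromosome 1 of GRCm38, between 24611535 and 24616197 on the minus strand, the annotation holds 7 pseudogenes that each match a mitochondrial member. Gm28661 matches mt-Co2 over 681 bases with 0 mismatches, Gm28437 matches mt-Co3 over 783 bases with 0 mismatches, Gm10925 matches mt-Atp6 over 678 bases with 0 mismatches, and Gm10222 matches mt-Nd4l over 294 bases with 0 mismatches. Gm28439 matches 876 bases of mt-Nd4 without a mismatch. Gm28438 differs from mt-Nd3 by 1 base in 345 (T3C), and Gm29216 differs from the last part of mt-Co1 by 1 base in 483 (A1066T), with positions counted from the first base of the mitochondrial gene and its base named first. The first 120 bases of mt-Co2 (chrM:7013-7132, plus strand) and of Gm28661 (chr1:24615446-24615565, minus strand) are printed to show that a read from here carries nothing that would assign it to either gene, so no base is in capitals.
mt-Co2: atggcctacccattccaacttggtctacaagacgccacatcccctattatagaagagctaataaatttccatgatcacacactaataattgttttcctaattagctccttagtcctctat
Gm28661: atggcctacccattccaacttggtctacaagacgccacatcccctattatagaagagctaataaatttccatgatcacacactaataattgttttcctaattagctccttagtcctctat

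Neighboring mitochondrial genes also share bases. The last 43 bases of mt-Atp8 are the first 43 bases of mt-Atp6 (chrM:7927-7969), in different reading frames, and mt-Nd4l and mt-Nd4 share 7 bases. The junction is printed with 20 bases on either side, with the shared bases in capitals.
mt-Atp8 and mt-Atp6 (chrM:7907-7989, plus strand): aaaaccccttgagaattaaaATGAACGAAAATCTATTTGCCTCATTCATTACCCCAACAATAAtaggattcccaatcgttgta

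The nuclear subunit genes showed no difference between genotypes that passed the test. Across all 96 members, 0 passed an adjusted p of 0.05 in edgeR's quasi-likelihood test, against 0.098% of the 16330 genes tested (16 genes). DESeq2 and limma-voom likewise called 0 members. At an unadjusted p below 0.05, 1 member was found by each of these 3 tools, against 5.39% of all genes in edgeR, and in each it was mt-Co2. The median log2 fold change (Slc39a8-NSKO minus control) was 0.0045 over the 83 nuclear members and 0.0011 over all genes tested. Of the nuclear members, 48 had a fold change above 0 and 35 below 0. For the 76 nuclear members with a mean count of at least 500, fold changes ran from -0.10 to 0.10 on the log2 scale, and the 95% intervals of all of them lay between -0.26 and 0.24. The RNA was taken from whole cerebellum, so that a different number of cells of a type and a different amount of RNA per cell cannot be told apart.

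**Figure D1:**
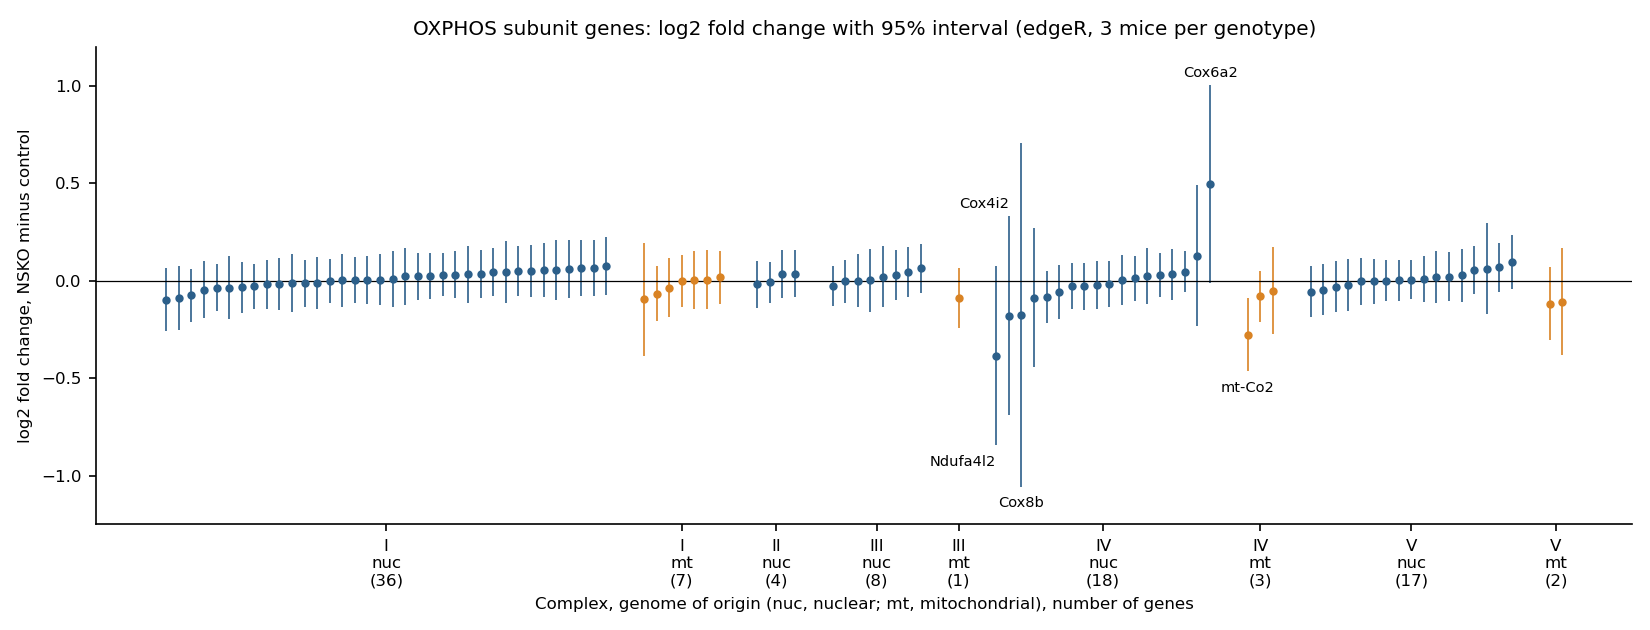
Log2 fold change (Slc39a8-NSKO minus control) of each of the 96 subunit genes on the vertical axis, with its 95% interval from edgeR, grouped along the horizontal axis by complex and genome and sorted within a group; blue marks nuclear and orange mitochondrial genes. The 76 nuclear genes with a mean count of at least 500 lie between -0.10 and 0.10, and the wide intervals belong to the weakly detected complex IV isoforms.

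The summed level of the nuclear subunits was close in both genotypes. Nuclear members took up 1.34%, 1.39% and 1.38% of the gene counts in control mice 1 to 3 and 1.34%, 1.43% and 1.37% in Slc39a8-NSKO mice 1 to 3, which is 1.37% ± 0.03 (SD, n = 3) against 1.38% ± 0.05 (SD, n = 3). Mitochondrial members took up 4.48%, 5.17% and 4.70% in control mice and 4.41%, 4.98% and 4.32% in Slc39a8-NSKO mice, or 4.78% ± 0.35 against 4.57% ± 0.36 (SD, n = 3 each). Both ranges overlapped, and mouse 2 was the highest of its genotype on both scales. A nuclear count was accompanied by 3.35, 3.71 and 3.41 mitochondrial counts in control mice and by 3.30, 3.48 and 3.16 in Slc39a8-NSKO mice. The log2 ratio of nuclear to mitochondrial counts was thus 0.08 higher in Slc39a8-NSKO mice, about as large as the SD between mice of a genotype (0.07), and the genotypes overlapped. A different number of mitochondria and a different amount of mitochondrial RNA in each mitochondrion cannot be told apart here.

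**Figure D2:**
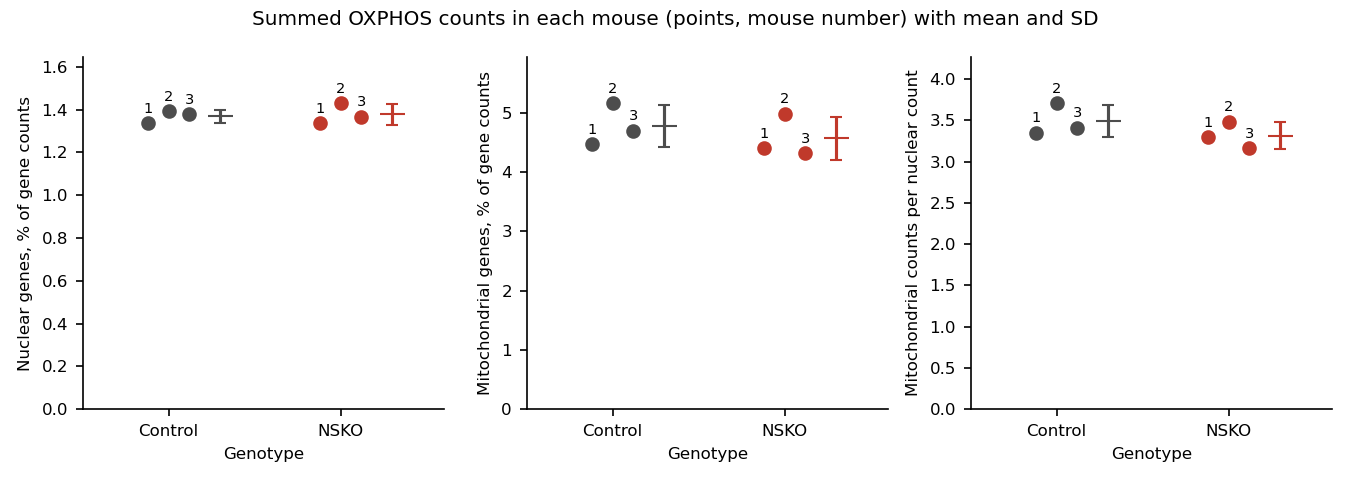
Summed counts of the 83 nuclear members (left) and of the 13 mitochondrial members (center) as a percentage of all gene counts, and mitochondrial counts per nuclear count (right), for each mouse (points with mouse numbers) with the mean and SD of each genotype. Control mice (gray) and Slc39a8-NSKO mice (red) overlap in each panel, and mouse 2 lies highest in both genotypes.

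Complex I is the largest complex, and its 36 nuclear members gave 22 fold changes above 0 and 14 below, with a median of 0.0067. Their summed level was 3611, 3780 and 3708 CPM in control mice and 3567, 3918 and 3666 CPM in Slc39a8-NSKO mice. Its 7 nuclear core subunits carry the cofactors that bring electrons from NADH to ubiquinone, and 3 of them were above and 4 below 0, between -0.05 and 0.05. Ndufv1, which binds NADH and flavin, was measured at 160, 175 and 165 CPM in control and 162, 173 and 160 CPM in Slc39a8-NSKO mice. Ndufs1, the largest iron-sulfur subunit, stood at 159, 146 and 148 CPM against 154, 154 and 146 CPM. The genotypes of both genes overlapped. The mean levels of Ndufs3, Ndufs7, Ndufs8 and Ndufv2, further core subunits, were 92.6, 127, 49.2 and 124 CPM in control and 95.5, 124, 47.6 and 122 CPM in Slc39a8-NSKO mice.

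Accessory subunits surround this core. The 2 lowest fold changes of nuclear complex I members belonged to the accessory subunits Ndufb3 (-0.10, SE 0.08) and Ndufb7 (-0.09, SE 0.08). The highest among nuclear complex I members belonged to Ndufs6, an accessory subunit that binds zinc (0.07, SE 0.07). Ndufb3 was measured at 74.2, 79.2 and 76.0 CPM in control mice and 67.0, 80.9 and 66.5 CPM in Slc39a8-NSKO mice, so that 2 of the 3 knockout mice lay below every control and the third above. For Ndufs6 the levels were 58.9, 57.6 and 59.4 CPM against 55.6, 64.7 and 65.0 CPM, again on both sides of the controls. In CPM per kb of transcript, nuclear complex I members ranged from 28.3 for Ndufb2 to 229 for Ndufb8, with a median of 107. Ndufb2 was divided by a transcript of 4371 bases. In plain CPM it averaged 121 in control and 126 in Slc39a8-NSKO mice, so its rank per kb rests on that length.

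Complex II consists of nuclear subunits alone. The sum of its 4 genes was 747, 733 and 733 CPM in control mice and 740, 742 and 733 CPM in Slc39a8-NSKO mice. Sdha, the flavoprotein that oxidizes succinate in the citrate cycle, stood at 455, 435 and 442 CPM against 452, 434 and 439 CPM (log2 fold change -0.01, SE 0.05, 95% interval -0.11 to 0.10). Sdhb, the iron-sulfur subunit, and the membrane anchors Sdhc and Sdhd had fold changes of -0.02, 0.04 and 0.03. Per kb, Sdha was the highest at 153 CPM and Sdhc the lowest at 31.5 CPM. The length taken for Sdhc was 3171 bases. In plain CPM the mean of Sdhd was lower than that of Sdhc, at 89.3 against 98.6 in control mice and 91.5 against 101 in Slc39a8-NSKO mice.

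Complex III had 8 nuclear members, with 5 fold changes above and 3 below 0 (median 0.01, range -0.03 to 0.06). Uqcrfs1, the Rieske iron-sulfur protein, was measured at 144, 162 and 149 CPM in control and 155, 163 and 150 CPM in Slc39a8-NSKO mice. The core proteins Uqcrc1 and Uqcrc2 had fold changes of -0.03 and -0.0022, both with an SE of 0.05. Per kb of transcript the small subunit Uqcr11 was the highest (305 CPM) and Uqcrc2 the lowest (98.6 CPM).

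Complex V had 17 nuclear members, with 11 fold changes above and 6 below 0 (median 0.0064). Atp5b, the catalytic beta subunit and the nuclear member with the most counts, was measured at 1556, 1535 and 1492 CPM in control and 1570, 1527 and 1485 CPM in Slc39a8-NSKO mice, with a 95% interval of -0.10 to 0.10 for its log2 fold change. Atp5k and Atp5j2, which lie in the membrane part, had the highest fold changes of the complex, 0.10 (SE 0.07) and 0.07 (SE 0.06). Atp5k levels were 80.8, 87.1 and 93.5 CPM in control and 90.4, 98.3 and 90.5 CPM in Slc39a8-NSKO mice, which overlap. The c subunits of the rotor ring are encoded by Atp5g1, Atp5g2 and Atp5g3, whose mature proteins are the same. Of their summed CPM, Atp5g3 gave 49.9% ± 0.42, Atp5g1 30.0% ± 0.89 and Atp5g2 20.1% ± 0.71 in control mice (SD, n = 3), and 49.9% ± 1.25, 29.8% ± 1.55 and 20.3% ± 0.56 in Slc39a8-NSKO mice. These shares do not allow for transcript length, which was taken as 4715 bases for Atp5g1. Per kb, control means were 361 CPM for Atp5g3, 33.3 CPM for Atp5g1 and 144 CPM for Atp5g2, so the order of Atp5g1 and Atp5g2 reverses. Counts of Atp5g1 and Atp5g2 were not whole and so include reads divided between genes. Atp5s, which is no structural subunit, was far lower per kb (7.88 CPM) than any other complex V member from the nucleus.

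The largest fold changes of nuclear members in either direction were those of weakly detected complex IV isoforms. Several of its nuclear subunits exist as a widely expressed form and a form best known from muscle, lung, testis or hypoxic cells. The widely expressed forms predominated in the cerebellum on the scale of CPM per kb. The ratio of Cox4i1 to Cox4i2 was 176 ± 38.2 in control mice (SD, n = 3), of Cox8a to Cox8b 466 ± 166, of Cox6b1 to Cox6b2 19.1 ± 2.43, and of Cox7a2 to Cox7a1 13.1 ± 2.39. In Slc39a8-NSKO mice the same ratios were 203 ± 49.7, 484 ± 43.4, 20.9 ± 4.16 and 12 ± 1.63, and they overlapped with the control ratios. Cox7a2l, a relative of Cox7a2 with a role in supercomplexes, had a fold change of -0.06 (SE 0.07).

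Cox6a2, the heart and skeletal muscle form of subunit VIa, was the nuclear member with the highest fold change. It was counted 40, 23 and 31 times in control and 43, 57 and 52 times in Slc39a8-NSKO mice, or 1.93, 1.6 and 1.99 CPM against 2.15, 2.93 and 2.76 CPM. The groups did not overlap, as was the case with higher levels in Slc39a8-NSKO mice for 5.08% of all genes. The fold change did not pass the test (0.50, SE 0.24, 95% interval -0.01 to 1.0, edgeR adjusted p = 0.918, exact two-sided permutation p = 0.1, the smallest that 3 mice against 3 allow). Cox6a1, its widely expressed counterpart, stood at 474, 499 and 492 CPM against 456, 538 and 504 CPM, and the per-kb ratio of Cox6a1 to Cox6a2 averaged 319 ± 45 for the controls and 230 ± 19.7 for the Slc39a8-NSKO mice (SD, n = 3), without overlap. Beside this stand the cardiac muscle markers, of which all 8 tested had a fold change above 0 (median 1.35) and 3 passed the test. The summed level of the 13 listed cardiac markers was 61.5 to 72.0 CPM in control and 79.2 to 88.1 CPM in Slc39a8-NSKO mice, and Myl7 and Myl3 were at 0 in every control mouse. Of the markers too low to be tested, Myl7, Myl3 and Nppa were higher in every Slc39a8-NSKO mouse, while Myh7 (0.632 ± 0.228 against 0.314 ± 0.185 CPM, SD, n = 3) and Myoz2 (0.168 ± 0.097 against 0.121 ± 0.0616 CPM) had lower means there and overlapped. The summed skeletal muscle markers overlapped, at 1.93 to 6.12 CPM against 4.88 to 5.41 CPM. Whether the cardiac transcripts have a part in the Cox6a2 level was not tested. The Cox6a2 gene also overlaps Itgad on the other strand, and whether counting used strand is not stated. Cox7a1 and Cox8b, further muscle forms, had fold changes of 0.13 (SE 0.17) and -0.17 (SE 0.41).

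Ndufa4l2, a relative of the complex IV subunit Ndufa4 that is known to be induced by hypoxia, had the lowest fold change of the nuclear members. It was counted 56, 52 and 46 times in control and 44, 51 and 42 times in Slc39a8-NSKO mice, or 2.70, 3.62 and 2.96 CPM against 2.20, 2.62 and 2.23 CPM. The groups did not overlap, as for 5.26% of all genes with lower levels in Slc39a8-NSKO mice, and the fold change did not pass the test (-0.38, SE 0.21, 95% interval -0.84 to 0.07, edgeR adjusted p = 0.973). Its gene overlaps Shmt2 on the other strand, and whether counting used strand is not stated. Ndufa4 was measured at 257, 284 and 266 CPM against 253, 275 and 262 CPM. Cox4i2, another hypoxia-related form, had a fold change of -0.18 (SE 0.24) and overlapped between genotypes, as did the summed endothelial markers (128 to 143 CPM in control, 126 to 141 CPM in Slc39a8-NSKO mice). Of the 6 endothelial markers, 5 had a fold change below 0 (median -0.08), and their part in these values was not tested.

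**Figure D3:**
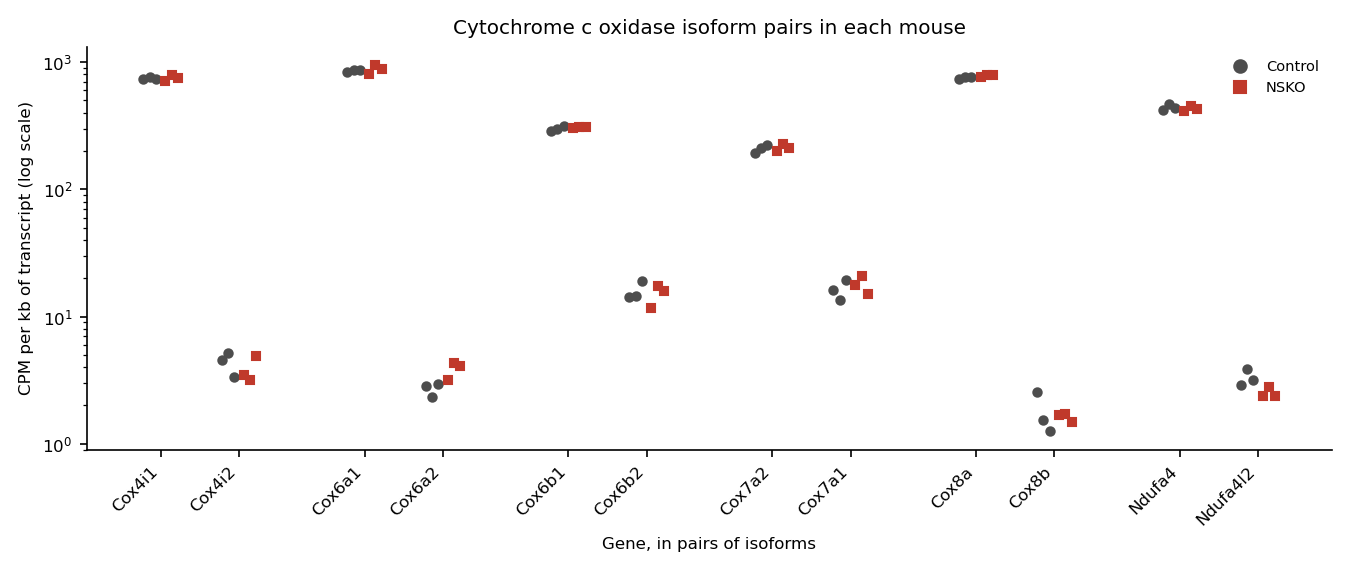
Level of 6 pairs of complex IV isoforms in CPM per kb of transcript (log scale) in each mouse, with control mice as gray circles and Slc39a8-NSKO mice as red squares, mice 1 to 3 from left to right. The first gene of each pair lies far above the second in every mouse, and the genotypes of Cox6a2 and Ndufa4l2 do not overlap.

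Promoters are shown for 3 of these genes to set widely expressed forms (Cox6a1 and Cox8a) beside a muscle form (Cox8b). RefSeq promoters (GRCm38.p6, 250 bases before to 50 bases after the start) were found by symbol for 66 of the 83 nuclear members, 71 promoters in all. Nuclear respiratory factor 1 and ETS-family factors such as GABP are known regulators of subunit genes, and each motif was searched on both strands. An NRF1 core (GCGCATGCG or GCGCACGCG) lay in 13 of the 71 promoters (18.3%) and in 3.36% of all 32851 promoters. An ETS core (CCGGAAG) lay in 16 (22.5%) and in 8.86% of all, and a TATA box (TATAAA) in 7 (9.86%) and in 13.6% of all. Capitals mark these motifs. The promoter of Cox6a1 holds 1 NRF1 and 1 ETS core, that of Cox8a 2 ETS cores, and that of Cox8b a TATA box. Cox6a1 was picked as the member of highest level per kb with an NRF1 core, so that its NRF1 core was given by the choice. Not all forms follow these examples, since the widely expressed Cox5a, Cox5b, Cox7a2, Cox7b and Cox7c held none of the motifs, and of the 3 restricted forms with an entry only Cox8b held a TATA box, while Cox6b2 and Cox7a1 held none. A match is a description of the sequence and not evidence of binding.
Cox6a1 (chr5:115348909-115349208, minus strand): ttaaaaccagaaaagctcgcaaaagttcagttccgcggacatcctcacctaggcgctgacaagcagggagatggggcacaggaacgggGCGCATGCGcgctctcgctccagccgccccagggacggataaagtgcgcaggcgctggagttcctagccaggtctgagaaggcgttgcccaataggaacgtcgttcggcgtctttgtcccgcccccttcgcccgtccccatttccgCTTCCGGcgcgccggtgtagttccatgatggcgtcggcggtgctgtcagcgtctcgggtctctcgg
Cox8a (chr19:7217567-7217866, minus strand): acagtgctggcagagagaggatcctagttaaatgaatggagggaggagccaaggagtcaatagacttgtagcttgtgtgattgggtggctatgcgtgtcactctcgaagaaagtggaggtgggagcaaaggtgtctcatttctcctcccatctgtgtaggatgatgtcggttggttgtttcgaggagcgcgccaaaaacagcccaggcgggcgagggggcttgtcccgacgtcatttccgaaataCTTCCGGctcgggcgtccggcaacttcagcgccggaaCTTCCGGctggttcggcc
Cox8b (chr7:140900397-140900696, minus strand): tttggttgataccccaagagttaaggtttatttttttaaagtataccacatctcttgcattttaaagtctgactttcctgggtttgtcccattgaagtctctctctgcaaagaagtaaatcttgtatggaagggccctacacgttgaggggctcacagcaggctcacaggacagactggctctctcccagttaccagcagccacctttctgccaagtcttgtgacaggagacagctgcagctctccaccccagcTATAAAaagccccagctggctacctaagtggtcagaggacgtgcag

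Per kb of transcript, every mitochondrial gene but mt-Nd4l and mt-Atp8 had a higher mean level than every nuclear member. These exceptions are the shortest mitochondrial members, annotated at 297 and 204 bases. The length of mt-Nd4l lies within the range of inserts the study describes, and that of mt-Atp8 lies below it. Of the joint counts of mt-Nd4l and its copy Gm10222, 29.7% to 34.1% were listed under mt-Nd4l. In control mice the joint level averaged 256 CPM, against 81.3 CPM for mt-Nd4l alone. The part of length or of the copy in these low levels was not tested. None of the 13 mitochondrial members passed the test, and the genotypes overlapped in every one but mt-Co2. Of all genes, 5.26% likewise did not overlap with lower levels in Slc39a8-NSKO mice. The median log2 fold change of the mitochondrial members was -0.07, with 3 members above and 10 below 0. Per mouse their median deviation was -0.06, 0.15 and 0.02 for controls 1 to 3, against -0.07, 0.10 and -0.10 for Slc39a8-NSKO mice 1 to 3. Without Slc39a8-NSKO mouse 3 the median was 0.04, so that its sign rested on that mouse. The 13 genes are not independent, since all but mt-Nd6 come from a shared precursor, and each pair had a correlation above 0 over the 6 mice (median r of 0.74 over 78 pairs, within shared libraries). The libraries were primed with oligo-dT and mitochondrial tails are short, so the counts may not be proportional to the RNA present.

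In complex I, mt-Nd1, mt-Nd2, mt-Nd4 and mt-Nd5, membrane subunits of the proton-pumping arm, had fold changes of -0.04, 0.01, -0.07 and -0.0002, each with an SE between 0.06 and 0.07. Levels of mt-Nd1 were 3952, 4596 and 4012 CPM in control and 3898, 4460 and 3900 CPM in Slc39a8-NSKO mice, and those of mt-Nd2 were 2795, 3012 and 2974 CPM against 2868, 3299 and 2653 CPM. The corresponding values were 5707, 6660 and 6080 CPM against 5601, 6334 and 5679 CPM for mt-Nd4, and 3157, 3342 and 3094 CPM against 3048, 3506 and 3038 CPM for mt-Nd5. All of these overlapped between genotypes. For mt-Nd3 they were 1208, 1243 and 1339 CPM against 1349, 1365 and 832 CPM, so that Slc39a8-NSKO mouse 3 lay far below the other 5 mice, whereas the other knockout mice lay above all controls. mt-Nd4l was far lower, at 78.1, 89.8 and 76.0 CPM against 81.5, 85.0 and 77.6 CPM. mt-Nd6, the only member encoded on the other strand of the mitochondrial genome, had levels of 497, 585 and 543 CPM against 535, 579 and 530 CPM (log2 fold change 0.02, SE 0.06).

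mt-Cytb, the catalytic cytochrome b of complex III, was measured at 5419, 6341 and 5644 CPM in control and 5132, 6000 and 5225 CPM in Slc39a8-NSKO mice (log2 fold change -0.09, SE 0.07). In complex V, mt-Atp6, which forms the proton channel with the ring, had levels of 3626, 4433 and 4148 CPM against 3628, 4273 and 3347 CPM. mt-Atp8 stood at 24.3, 22.9 and 22.9 CPM against 22.1, 26.3 and 16.7 CPM. Both overlapped, with fold changes of -0.12 (SE 0.09) and -0.11 (SE 0.13), and both were lowest in Slc39a8-NSKO mouse 3. Per kb, mt-Atp8 had 111 CPM and mt-Atp6 5740 CPM, although they are parts of the same transcript and share the 43 bases printed above, and how counts from the shared part were assigned cannot be read from the table. At 204 bases, mt-Atp8 is also annotated shorter than the inserts the study describes, and whether this lowers its counts was not tested.

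mt-Co1, the catalytic subunit of complex IV and the most abundant member, was measured at 15110, 16906 and 15138 CPM in control and 14271, 15859 and 14496 CPM in Slc39a8-NSKO mice (log2 fold change -0.08, SE 0.06). mt-Co3, a core subunit, stood at 2174, 3046 and 2684 CPM against 2708, 2718 and 2205 CPM (-0.05, SE 0.10). mt-Co2, which takes up electrons from cytochrome c, was the member with the smallest p. Its levels were 1263, 1595 and 1258 CPM in control and 1071, 1243 and 1085 CPM in Slc39a8-NSKO mice. The groups did not overlap, as for 5.26% of all genes with lower levels in Slc39a8-NSKO mice, although the highest knockout mouse and the lowest control mouse lay close together. The log2 fold change was -0.28 (SE 0.09, 95% interval -0.46 to -0.09, edgeR unadjusted p = 0.00674, adjusted p = 0.667, exact two-sided permutation p = 0.1). It was -0.15 (adjusted p = 1) without control mouse 2, the highest, and with no filter on low counts it passed the test (-0.27, adjusted p = 0.0002), in a fit that called 178 genes in place of 16.

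**Figure D4:**
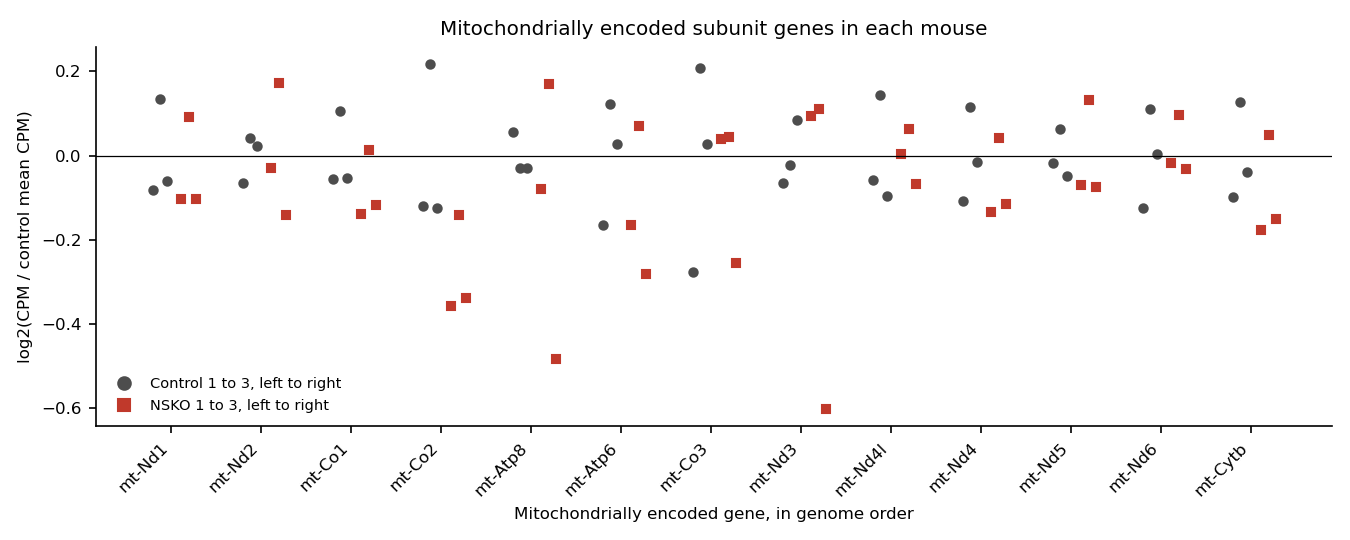
Level of each mitochondrial member in each mouse as the log2 ratio of its CPM to the control mean, with genes in the order of the mitochondrial genome. The Slc39a8-NSKO mice (red squares) lie below the control mice (gray circles) for mt-Co2 alone, as they do for 5.26% of all genes. Slc39a8-NSKO mouse 3 lies apart for mt-Nd3 and mt-Atp8.

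The 7 mitochondrial members with a matching copy on chromosome 1 were also the 7 mitochondrial members whose counts were not whole. The 6 other mitochondrial members had whole counts in every mouse. Together the copies held 0.83%, 0.88% and 0.91% of the gene counts in the control mice, against 0.81%, 0.95% and 0.88% in the Slc39a8-NSKO mice, with a mean of 90124 counts on Gm28661 and 54592 for Gm28437. The deposited table thus listed 21.9%, 23.8% and 19.5% of the joint counts of mt-Co2 and Gm28661 under mt-Co2 in control mice and 18.1%, 18.6% and 18.4% in Slc39a8-NSKO mice, without overlap. For mt-Co3 the share was 41.4%, 51.5% and 45.6% against 50.5%, 45.2% and 42.7%, and for mt-Nd4l 29.7%, 34.1% and 31.6% against 33.0%, 32.2% and 30.7%, both with overlap. For mt-Atp6 it was 87.2%, 88.4% and 88.5% against 88.7%, 89.8% and 80.5%, and for mt-Nd3, mt-Nd4 and mt-Co1 it was at least 98.7% in every mouse.

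When each gene was summed with its copy, an alternative chosen after the data were seen, the genotypes overlapped in mt-Co2. The joint level was 5763, 6708 and 6442 CPM in control and 5913, 6680 and 5902 CPM in Slc39a8-NSKO mice, which is 6304 ± 487 against 6165 ± 446 CPM (SD, n = 3). The log2 fold change was -0.03 (SE 0.07, 95% interval -0.17 to 0.11, edgeR adjusted p = 0.994). The joint level of mt-Co3 was 5247, 5913 and 5886 CPM against 5361, 6013 and 5162 CPM, with a smaller SE than mt-Co3 alone (0.07 against 0.10). mt-Nd3 in Slc39a8-NSKO mouse 3 remained low, at 839 CPM against 1218 to 1379 CPM in the other mice. With the copies included, 0 of the 96 members passed the test and 0 had an unadjusted p below 0.05 in edgeR, and the median of the mitochondrial members was -0.04. Which gene the divided reads came from cannot be told from sequences that are identical.

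**Figure D5:**
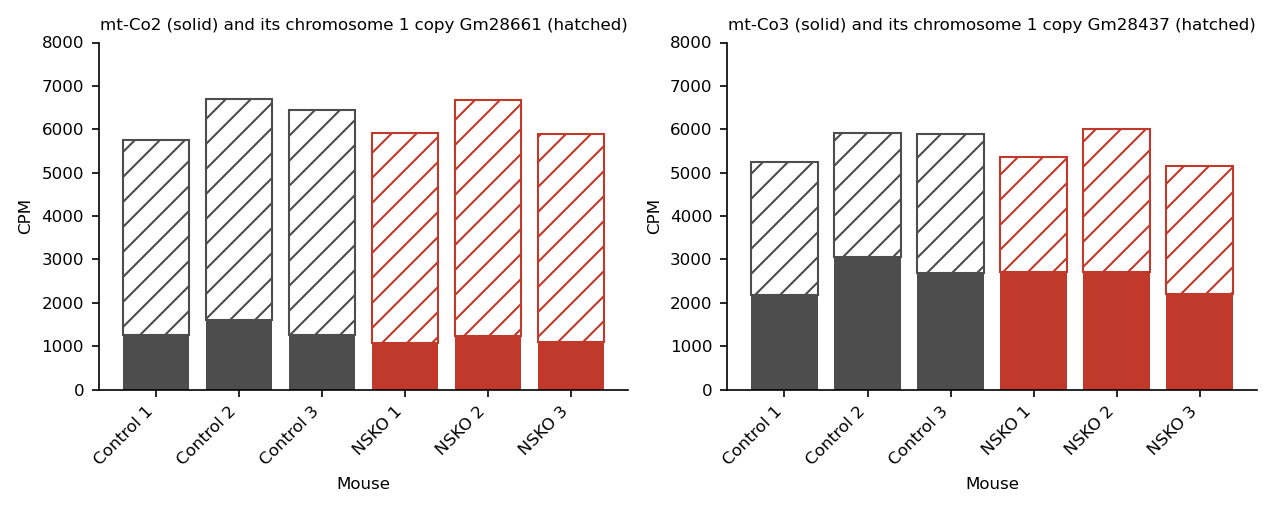
CPM of mt-Co2 (left) and mt-Co3 (right) in each mouse as solid bars, with the CPM of the matching pseudogene on chromosome 1 stacked on top as hatched bars, for control (gray) and Slc39a8-NSKO mice (red). The solid part of mt-Co2 is shorter in all Slc39a8-NSKO mice, while the full bars overlap between genotypes, from 5763 to 6708 CPM in control and from 5902 to 6680 CPM in Slc39a8-NSKO mice.

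The spread between mice of a genotype sets what could be detected. The median SD on the log2 CPM scale was 0.08 for nuclear members with a mean count of at least 500, as for all genes at that count (0.08), and 0.12 for mitochondrial members. The nuclear members moved together from mouse to mouse. Their median deviation from the mean of the 6 mice was -0.05, 0.02 and 0.0038 for controls 1 to 3, against -0.04, 0.08 and -0.01 for Slc39a8-NSKO mice 1 to 3, and 79.6% of the 2850 pairs among 76 members had a correlation above 0 (median r of 0.49 over 6 mice that share library depth and preparation). Within each genotype, mouse 1 was likewise the lowest and mouse 2 the highest in 87 other protein-coding genes with transcripts up to 700 bases (-0.07, 0.04 and 0.01 against -0.06, 0.08 and 0.01), whereas 1853 genes with transcripts over 5000 bases deviated the other way in mice 1 and 2 of each genotype (0.03 and -0.04 against 0.05 and -0.04). Among the nuclear members themselves, the 32 with transcripts up to 700 bases (-0.06, 0.02 and 0.02 against -0.06, 0.09 and 0.01) and the 25 with transcripts over 1200 bases (-0.05, 0.02 and -0.005 against -0.02, 0.07 and -0.02) both had control mouse 1 lowest and Slc39a8-NSKO mouse 2 highest. With the length trend removed, 0 members passed and the nuclear median was 0.0051.

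Genes that build or serve the complexes were read from lists. Of 47 assembly factors, 27 had a fold change above 0, the median was 0.02 and 0 passed the test. Sdhaf1, which inserts iron-sulfur clusters into complex II, had the only unadjusted p below 0.05, with 23.4, 25.0 and 23.4 CPM in control and 25.3, 28.3 and 27.6 CPM in Slc39a8-NSKO mice (0.18, SE 0.08, edgeR adjusted p = 0.908). Of 18 genes of pyruvate dehydrogenase and the citrate cycle, 13 were above 0 with a median of 0.03, and 0 had an unadjusted p below 0.05 in edgeR. Of 13 carriers tested, 5 were above 0 with a median of -0.01. None of these lists had a member past the test.

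The machinery of mitochondrial gene expression gave like values. Of 78 mitochondrial ribosomal proteins, 39 were above and 39 below 0 (median 0.0015), and 0 passed. Mrpl38, Mrps6 and Mrps16 had an unadjusted p below 0.05, with fold changes of 0.15, 0.21 and 0.23 and adjusted p values of 0.908, 0.860 and 0.867 in edgeR. Of 27 genes for mitochondrial DNA maintenance, transcription and RNA processing, 15 were above 0 (median 0.0079), and 1, the RNA helicase gene Supv3l1, had an unadjusted p below 0.05 (0.24, SE 0.10, edgeR adjusted p = 0.908). Both mitochondrial rRNAs had fold changes below 0 without passing. mt-Rnr1 had an unadjusted p below 0.05 (-0.18, SE 0.07, edgeR unadjusted p = 0.0255, adjusted p = 0.867). It was measured at 1837, 2174 and 1943 CPM against 1622, 1890 and 1762 CPM, which overlap. The fold change of mt-Rnr2 was -0.12 (SE 0.07).

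Regulators of mitochondrial biogenesis held the smallest p values among these lists, though 0 of 16 passed and the median was -0.02. Sirt1, a deacetylase that acts on PGC-1alpha, was measured at 30.8, 34.0 and 31.9 CPM in control and 28.1, 27.6 and 24.9 CPM in Slc39a8-NSKO mice (-0.26, SE 0.08, edgeR adjusted p = 0.612). Gabpb1, the beta subunit of GABP, was at 22.1, 21.3 and 22 CPM against 27.4, 24.0 and 27.5 CPM (0.27, SE 0.08, edgeR adjusted p = 0.614), and Nrf1, which encodes nuclear respiratory factor 1, was at 23.7, 25.9 and 26.3 CPM against 20.7, 23.6 and 21.9 CPM (-0.19, SE 0.08, edgeR adjusted p = 0.908). The genotypes did not overlap in these 3 genes, against 5.26% of all genes with lower and 5.08% with higher levels in Slc39a8-NSKO mice. Of 9 mitochondrial antioxidant entries, with Nnt under 2 identifiers, 3 were above 0 with a median of -0.01, and 0 had an unadjusted p below 0.05. Sod2, the superoxide dismutase that uses manganese, stood at 170, 160 and 164 CPM in control and 165, 164 and 165 CPM in Slc39a8-NSKO mice (0.0003, SE 0.05).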

How the data were processed

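Total RNA from the cerebellum of each of 6 mice was primed with oligo-dT, made into libraries and sequenced by the authors as paired-end Illumina reads. The labels name a directional kit, and the strand setting of the counting is not given in the sources used here. The submitters' processing notes list FastQC, STAR, RSEM, DESeq2 and the build mm10, without versions. The values deposited by the authors are expected counts per gene, not normalized. RSEM divides reads that fit several genes, and 5319 genes, 24 members among them, had counts that were not whole. Rows of 92 spike-in sequences, with at most 5 counts each, were left out. All count columns were used. Names, positions and transcript lengths (principal transcript, the longest where several ranked equally) came from GENCODE on GRCm38, which held 53620 of the 53715 genes. Levels per kb and the length classes depend on these lengths.

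Counts were rounded and tested in R 4.3.3 with the quasi-likelihood test of edgeR 4.0.16 (TMM, filterByExpr, genotype alone, Benjamini-Hochberg adjustment over the 16330 genes kept, threshold 0.05). Total counts ranged from 14431260 to 20844267. CPM were scaled by TMM, and log2 CPM used a prior count of 2. Copies on chromosome 1 were found by shared stretches of 20 bases and aligned with Biopython 1.88. Single genes were compared by exact permutation tests (scipy 1.17.1). The tests were tried on simulated data. Alternatives were DESeq2 1.42.0, voom of limma 3.58.1, other scalings and filters, a replicate block, and each mouse left out. Removal of the length trend (loess, span 0.3) and sums with the chromosome 1 copies were chosen after seeing the data.

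The members and lists were chosen with earlier results of these data known. Named with values were all mitochondrial members, members with an unadjusted p below 0.05, the 5 highest and 5 lowest nuclear fold changes, the highest and lowest member per kb of each complex, the complex I core and the isoform groups. Values of 1 gene that this rule names are not reported here. Replicate numbers were not taken to pair the mice, since same-numbered mice correlated at 0.14, 0.12 and 0.01 in their deviations and a limit of 0.1 was set for each pair. The study gives mice as replicates in its methods but technical triplicates in a legend, and if the latter held, p values would describe only technical spread.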

Additional observations from a re-analysis of the deposited data

How the results depend on the processing

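The count of members past the test was 0 in all fits but these: with no filter on low counts and with the replicate number as a block it was 1, which was mt-Co2 in both (-0.27 each, adjusted p = 0.0002 and 0.0349 in edgeR). Over all genes the count was 16, and it was 37 with DESeq2, 178 with no filter, 41 with the replicate block and 9 to 38 with a mouse left out, the lowest without Slc39a8-NSKO mouse 2 and the highest without control mouse 1. The cause was not tested. Replicate numbers mark no shared litter or day in the labels, and the mice numbered 1 and those numbered 2 correlated best with each other (0.14 and 0.12) but the mice numbered 3 did not (0.01). The adjusted p of mt-Co2 ran from 0.0002 to 1 over the alternatives. The nuclear median stayed between -0.02 and 0.04 with a mouse left out, and the mitochondrial median between -0.12 and 0.04. The log2 ratio of nuclear to mitochondrial counts was 0.03 to 0.11 higher in Slc39a8-NSKO mice with a mouse left out, 0.09 per kb of transcript, 0.05 without genes whose counts were not whole, and 0.06 with the copies. Of 735 comparisons of 46 named members with an alternative, 733 stayed on the same side of the threshold. In 53, for 24 members, the sign changed, in each case for a member whose 95% interval holds 0. For the 7 nuclear members under 500 counts, the depth limits what can be seen, with a median SE of 0.21 against 0.06 for the nuclear members above.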

Other observations

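Annotated relatives of the subunit genes that the rule left out because they are not classed as protein-coding were also measured. Of 13 such symbols, 2 had a mean count above 10. Ndufb1-ps, classed as a bidirectional promoter lncRNA on chromosome 12, was measured at 39.0, 40.7 and 47.9 CPM in control and 46.1, 50.5 and 40.5 CPM in Slc39a8-NSKO mice (log2 fold change 0.11, SE 0.09, edgeR adjusted p = 0.994). Ndufb4c, classed as a processed pseudogene on chromosome 15, was measured at 41.8, 45.2 and 40.3 CPM against 35.1, 38.9 and 38.7 CPM. It was lower in every Slc39a8-NSKO mouse, as were 5.26% of all genes, without passing the test (-0.17, SE 0.07, edgeR adjusted p = 0.886). Ndufb4, the protein-coding relative, stood at 51.4, 53.6 and 54.8 CPM against 51.2, 57.9 and 58.0 CPM, and its counts were not whole.

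In the stretch of the mitochondrial genome from mt-Atp8 to mt-Nd3, Slc39a8-NSKO mouse 3 was the lowest of the Slc39a8-NSKO mice for mt-Atp8, mt-Atp6, mt-Co3 and mt-Nd3, at 16.7, 3347, 2205 and 832 CPM. It was also the lowest of them for mt-Nd2, mt-Nd4l, mt-Nd5 and mt-Nd6, which lie outside this stretch, and for mt-Atp6 summed with its copy Slc39a8-NSKO mouse 1 was lower (4091 against 4160 CPM). These neighbors were picked after their values were seen, and the pattern was not tested.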
